A study of Macaca mulatta with 30 samples.

Results

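Kallikreins are secreted serine proteases encoded by a family of neighbouring genes. KLK1, tissue kallikrein, cuts low-molecular-weight kininogen to release kallidin, a peptide that acts on the kinin receptors and widens blood vessels; it is classically made by the ducts of salivary glands and by the exocrine pancreas. The other members are mostly epithelial proteases: KLK5, KLK7 and KLK14 take part in shedding of the skin's outer layer, where SPINK5 restrains them, and KLK3 is prostate-specific antigen. Members were taken as all genes named KLK with a number whose mean reached 1 TPM (a unit giving a gene's length-corrected share of all transcripts in a library) in at least 1 tissue. Of 14 genes with such a name among 21292 genes in the table, 13 met the rule. KLK3 did not, with a highest tissue mean of 0.0329 TPM in the sublingual gland. KLK4 lay just inside, with 2.16 TPM in the pancreas.

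The libraries came from 6 rhesus macaques (Macaca mulatta), 4 females numbered 1 to 4 and 2 males numbered 5 and 6. Parotid, submandibular and sublingual gland, pancreas and liver were sampled once from each animal, which gave 30 libraries of total RNA from sections of flash-frozen tissue. The labels place the glands on the left side, except the parotid of animal 3, whose library name carries R where the others carry L. No animal was labelled as treated, and ages were not among the labels used here. The design sets tissues against each other within the same animal, with the salivary glands against the pancreas and the pancreas against the liver as its main questions. The 5 olive baboons that it also names were not analysed here.

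Several libraries stood apart from others of their tissue. Hepatocyte markers had a median of 3239 to 7134 TPM in the 6 livers and at most 76.5 TPM in other libraries. Pancreatic acinar markers (15 genes) had a median of 7694 to 27078 TPM in 5 pancreas libraries, but 191 TPM in that of animal 4, where adipocyte markers reached a median of 331 TPM. The submandibular library of animal 4 had a salivary acinar marker median of 68.7 TPM against at least 2047 TPM in the other 5, and an adipocyte marker median of 660 TPM. Skeletal muscle markers had a median of 11067 TPM in the parotid library of animal 6, and of 956 TPM in that of animal 1, 1100 and 2956 TPM in the sublingual libraries of animals 1 and 5, and at most 81.2 TPM elsewhere. Stratified squamous epithelium markers had a median of 1313 and 1580 TPM in the sublingual libraries of animals 1 and 4, and at most 19.6 TPM in the other 28. In such bulk tissue, fewer cells of a type and less RNA per cell cannot be told apart.

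KLK1 made up more than 50% of summed kallikrein TPM in 28 of 30 libraries and was higher in each of the 3 salivary glands and the pancreas than in the liver. Pancreas levels reached 2239 TPM (animal 5) and were lowest at 55.9 TPM (animal 4), with a median of 1810 TPM and a mean of 1537 ± 783 TPM (SD, n = 6). Submandibular levels spanned 45.2 TPM (animal 4) to 2192 TPM (animal 5), with a median of 1474 TPM and a mean of 1359 ± 808 TPM (SD, n = 6). In both tissues the library of animal 4 lay within the liver's range, while the other 5 lay far above it.

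Sublingual KLK1 lay between 170 TPM (animal 4) and 970 TPM (animal 6), with a median of 756 TPM and a mean of 688 ± 312 TPM (SD, n = 6). Parotid KLK1 had the largest SD of the 5 tissues, from 127 TPM (animal 6) to 2688 TPM (animal 4), with a median of 449 TPM and a mean of 838 ± 949 TPM (SD, n = 6). Animal 4 thus had the highest parotid value but the lowest value in each of the other 4 tissues. Liver KLK1 lay between 33.8 TPM (animal 4) and 77.3 TPM (animal 6), with a median of 40.1 TPM and a mean of 47.2 ± 16.0 TPM (SD, n = 6). No sublingual or parotid library overlapped the liver's range.

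**Figure D1:**
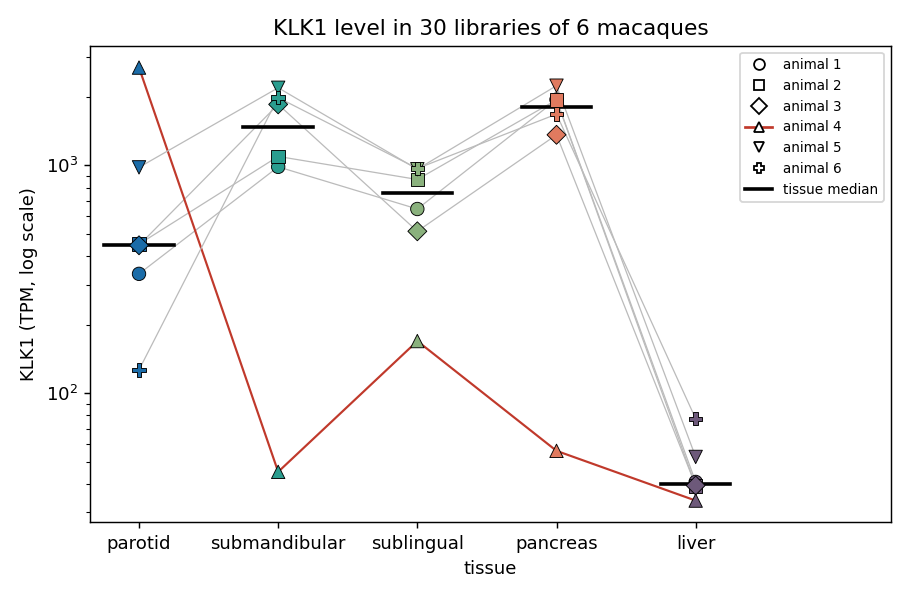
KLK1 in TPM on a log axis (vertical) in each tissue (horizontal), with 1 symbol per animal, thin lines joining the tissues of an animal and black bars at the tissue medians. The red line follows animal 4, whose parotid value of 2688 TPM was the highest of all libraries while its submandibular and pancreas values, 45.2 and 55.9 TPM, lay among the livers.

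The differences were tested with limma on log2(TPM + 1), with the animal as a block, and adjusted by the Benjamini-Hochberg method over 13550 genes within each of the 10 tissue pairs. KLK1 was higher than in liver by 4.45 (SE 0.76, adjusted p = 4.14e-05) in the pancreas on this scale. The submandibular difference was 4.21 (SE 0.76, adjusted p = 6.11e-05). For the sublingual gland it was 3.69 (SE 0.76, adjusted p = 0.000354), and for the parotid 3.52 (SE 0.76, adjusted p = 0.000401). Each difference had the same sign in 6 of 6 animals, and each call held under every alternative tried in limma. Among all genes tested, 6.76% were called higher in pancreas than in liver, 5.68% in submandibular, 12.8% in sublingual and 4.61% in parotid. With trimmed-mean scaling in place of TPM as deposited, these shares were 16.0%, 21.0%, 20.5% and 18.3%.

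For KLK1 alone, flipping the signs of the within-animal differences (an exact permutation test, two-sided, 64 patterns) gave p = 0.03125 for each of the 4 comparisons with liver. That is the smallest p it allows, and it became 0.0781 after adjustment over the 10 pairs. For submandibular gland against liver it was 0.0625 with trimmed-mean scaling, where the difference was positive in 5 of 6 animals. For the other 6 pairs the exact p ran from 0.1875 to 0.8125.

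None of those 6 pairs, among the glands and pancreas, was called for KLK1 in limma with all animals. The parotid minus pancreas difference was -0.93 (SE 0.76, adjusted p = 0.364), positive in 1 of 6 animals. The submandibular minus pancreas difference was -0.24 (SE 0.76, adjusted p = 0.873), and the sublingual minus pancreas difference -0.76 (SE 0.76, adjusted p = 0.587). So in order of mean level, from pancreas through submandibular gland and parotid to sublingual gland, no neighbours differed beyond their spread, and only the step down to liver did. By median the sublingual gland stood above the parotid.

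Leaving out animal 4 changed how the glands and pancreas compared. Without animal 4 the means were 1833 ± 329 TPM in the pancreas, 1622 ± 546 TPM in the submandibular gland, 792 ± 203 TPM in the sublingual gland, 468 ± 315 TPM in the parotid and 49.9 ± 16.3 TPM in the liver (SD, n = 5). The SE of a difference fell to 0.35, and 9 of 10 pairs were called in limma. Parotid KLK1 was then lower than pancreas (-2.23, adjusted p = 6.73e-05), submandibular (-2.001, adjusted p = 0.00483) and sublingual KLK1 (-0.997, adjusted p = 0.0221). Sublingual KLK1 was lower than pancreas (-1.23, adjusted p = 0.0112) and than submandibular KLK1, which exceeded it by 1.00 (adjusted p = 0.0182).

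The pair left uncalled was submandibular against pancreas, at -0.23. When animal 4 was left out and trimmed-mean scaling was used together, the parotid minus sublingual difference was 0.07 (adjusted p = 0.939). The differences of parotid from pancreas (-1.69) and submandibular gland (-2.17), and of sublingual gland from pancreas (-1.77) and submandibular gland (2.25 in favour of the latter), stayed called. The choice to leave out animal 4 alone was among the leave-one-out alternatives, while the combination was added after the data were seen. Both fits kept the parotid library of animal 6, with 127 TPM of KLK1 and high skeletal muscle markers. A further added fit left it out with the pancreas and submandibular libraries of animal 4, but kept that animal's parotid. There parotid KLK1 was called lower than pancreas but was not called against either other gland, and parotid minus sublingual reversed in sign.

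**Figure D2:**
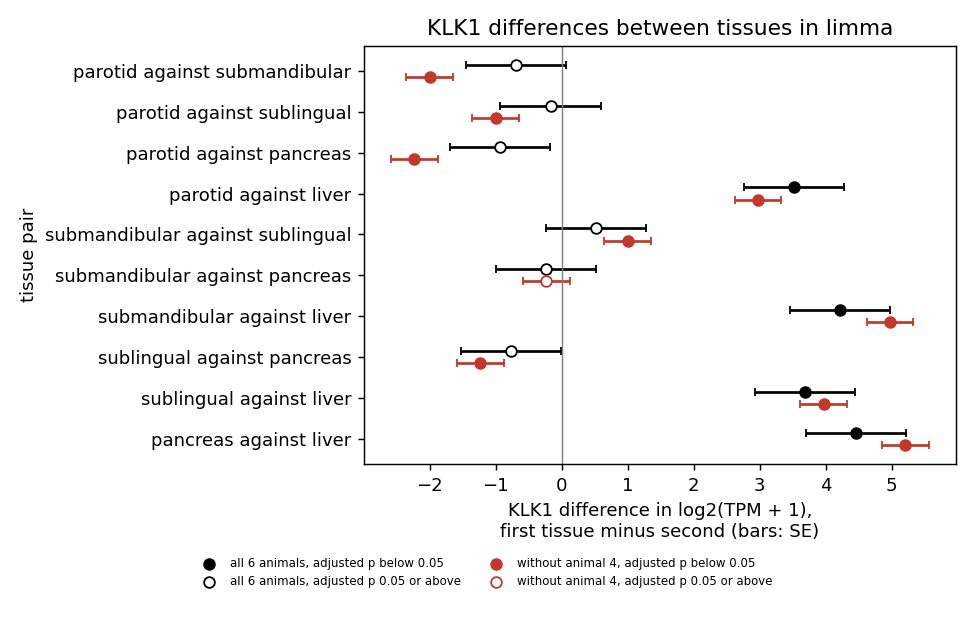
Difference in KLK1 on the log2(TPM + 1) scale (horizontal, first tissue minus second, bars SE) for the 10 tissue pairs (vertical), from all 6 animals in black and without animal 4 in red, with filled points where the adjusted p was below 0.05. The 4 comparisons with liver are filled in both colours, and 5 further pairs are filled only without animal 4.

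KLK1 differed from the rest of the family in scale. It made up 95.8 to 99.0% of summed kallikrein TPM in the parotid libraries and 76.2 to 95.04% in the livers. In the submandibular gland and pancreas it made up at least 97.6% except in animal 4, where the shares were 43.3% and 55.4%. In the sublingual gland it made up at least 95.9% in 4 libraries, but 53.7% in animal 1 and 14.5% in animal 4. By rank among all genes in a library, KLK1 had a median rank of 30.5 in the submandibular gland, 52.5 in the pancreas, 57 in the parotid, 155 in the sublingual gland and 2016.5 in the liver. Its best rank was 24, in the parotid of animal 4.

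In the reference gene order KLK1 stands at 1 end of the cluster, next to ACP4, a testis-type acid phosphatase gene, and KLK15. ACP4 reached at most 0.259 TPM and KLK15 at most 6.23 TPM in any library, so neither neighbour had a level near that of KLK1. GPR32, on the same side as ACP4, reached at most 0.0978 TPM.

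**Figure D3:**
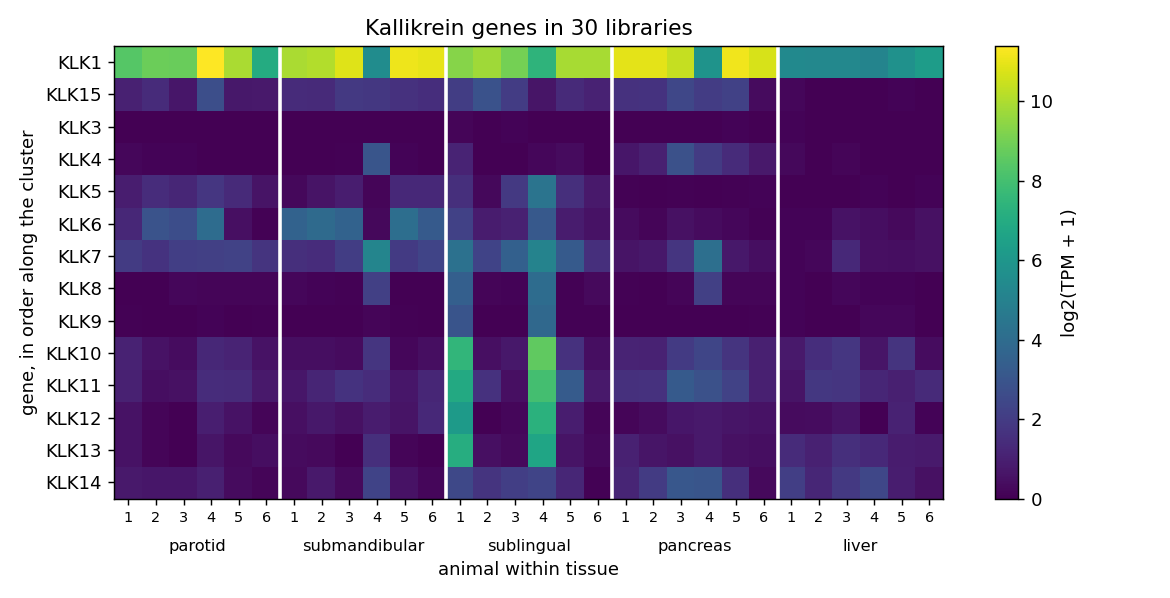
Level of the 14 kallikrein genes (vertical, in their order along the cluster) as log2(TPM + 1) by colour in the 30 libraries (horizontal, grouped by tissue and numbered by animal). KLK1 is bright in nearly all gland and pancreas libraries, while KLK10 to KLK13 are bright in 2 sublingual libraries, those of animals 1 and 4.

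Liver KLK1 was low but present in all 6 livers. Its mean was 3.07% of the pancreas mean, 3.47% of the submandibular mean, 5.63% of the parotid mean and 6.86% of the sublingual mean. The same share was 0.787 to 1.46% of the pancreas mean for 13 pancreatic acinar markers, and 0.878 to 4.12% of the highest gland's mean for 9 salivary acinar markers. The share of KLK1 thus lay above the pancreatic range and, set against the submandibular gland, inside the salivary one; how much liver KLK1 came from carried-over RNA was not tested. Males had 52.6 and 77.3 TPM, and females 33.8 to 40.8 TPM, so the sexes did not overlap in liver. The exact two-sided permutation p was 0.0667, the smallest that 4 females against 2 males allow. In the other 4 tissues the exact p for sex ran from 0.2 to 0.6.

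Within salivary glands, KLK1 was read beside markers of ducts and acini. Deviations of KLK1 from each gland's mean correlated with those of 11 duct markers at a median Pearson r of 0.55 over 18 libraries (10 of 11 positive), and at 0.28 over the 15 libraries without animal 4 (10 of 11 positive). For 11 acinar markers the median r was 0.71 (10 of 11 positive), and 0.16 without animal 4 (7 of 11 positive). These libraries share animals and a fixed TPM total, and the values are a description. They cover variation within glands only. Between glands, 7 of 11 duct markers were called lower in parotid than in sublingual gland (40.6% of all genes). Against sublingual gland 6 were lower in submandibular gland (27.2%), with 0 higher in either pair. These counts depend on the scaling: of all genes, 10.8% and 8.43% were lower in these pairs with trimmed-mean scaling. The duct list was not counted with that scaling, so nothing is read from its counts about KLK1. KLK1 was called in neither of these pairs with all animals.

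The parotid library of animal 4, highest for KLK1, also had the highest duct marker median of the parotids, 13.8 TPM against 1.75 to 5.27 TPM. TFCP2L1, a transcription factor gene of ducts, was 15.5 TPM there against 1.16 to 4.16 TPM in the other parotids. ASCL3, a marker of duct progenitors and ionocytes, was 20.4 TPM against 1.93 to 7.31 TPM. Both genes were chosen after their values were seen. Over 18 gland libraries their deviations correlated with those of KLK1 at r = 0.73 and 0.76. Over the 11 duct markers r ran from -0.02 (SLPI) to 0.89 (KRT18), with 0.10 for KRT7, 0.19 for SCNN1A and 0.12 for SCNN1B. The acinar marker median of this parotid library, 139 TPM, lay within the range of the other parotids, 118 to 221 TPM. That list separates the parotid poorly, since its median was 54.8 to 193 TPM in the livers. The submandibular library of animal 4, lowest for KLK1, was lowest of the submandibular libraries for both lists, at 0.883 and 68.7 TPM. The part of these cell markers in the KLK1 differences was not tested.

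**Figure D4:**
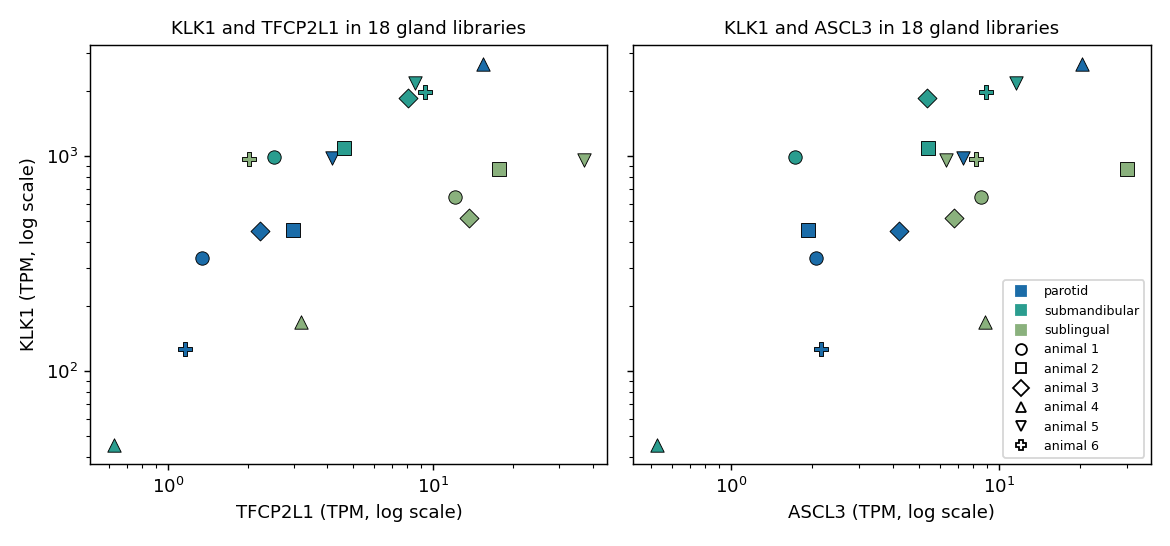
KLK1 (vertical, TPM, log axis) against TFCP2L1 (left) and ASCL3 (right), both in TPM on log axes, in 18 salivary libraries, coloured by gland with 1 symbol per animal; these 2 duct genes were chosen after their values were seen. Animal 4 supplies the parotid library highest in KLK1, with 15.5 TPM of TFCP2L1, and the submandibular library lowest in KLK1, with 0.626 TPM.

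The genes most like KLK1 in level over the 30 libraries, among 6222 genes whose mean reached 10 TPM in some tissue, were CD164L2 (Pearson r = 0.85), NUCB2 (0.83), PPP1R1B (0.83), ASNS (0.83) and CLDN10 (0.83). NUCB2 encodes a calcium-binding protein of the secretory pathway, PPP1R1B a phosphatase inhibitor, ASNS asparagine synthetase and CLDN10 a tight junction protein. For deviations from tissue means the closest were CD164L2 (0.90), CLDN3 (0.88), RAB26 (0.88), BHLHA15 (0.84) and PRR15L (0.84). RAB26 is a secretory granule GTPase and BHLHA15 a transcription factor of acinar cells. The 30 libraries of 6 animals are not independent, so these values carry no p. The values include animal 4, whose KLK1 stood apart in several tissues, and were not recomputed without that animal. For BHLHA15 in the salivary libraries alone, r of deviations was 0.77 over 18 libraries and 0.31 over the 15 without animal 4.

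Of the other 12 members, 9 passed the filter for testing, at least 1 TPM in at least 6 libraries. KLK8, KLK9 and KLK12 did not pass. KLK4 passed mainly through the tissue where it was high, so the pooled counts next and the counts for each tissue pair leave it out. The 80 differences of the other 8 genes gave 30 calls in limma, of which 13 held under every alternative that gave a value. Over all genes the share called ran from 0.347% (parotid against submandibular gland) to 58% (parotid against liver) by tissue pair. How many calls of all genes held under every alternative was not counted, so nothing is read from the 13. With KLK1 included, 9 members were counted in each tissue pair. For parotid against liver 6 of the 9 were called, where 58% of all genes were called. Of these, 5 were higher in parotid (4.61% of all genes) and 1, KLK14, was lower (53.4%). For submandibular gland against liver 5 were called (50.7%), 4 higher (5.68%) and 1 lower (45.1%). For sublingual gland against liver 5 were called (31.5%), all 5 of them higher (12.8%, with 18.7% lower). For pancreas against liver 2 were called (30.4%), KLK1 and KLK15, both higher (6.76%, with 23.6% lower). The direction of calls over all genes depended on the scaling. With trimmed-mean scaling 18.3% were higher and 25.1% lower in parotid than in liver, 21% and 25.6% for the submandibular gland, 20.5% and 23.6% for the sublingual, and 16% and 20.9% for the pancreas. The rule that chose the members used these levels, so nothing is read from the difference between their shares and those of all genes.

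Between parotid and pancreas 2 members were called (15.8% of all genes), KLK5 higher in parotid (2.24%) and KLK14 lower (13.6%). Between submandibular gland and pancreas 2 were called (9.71%), KLK6 higher (2.25%) and KLK14 lower (7.46%). Between sublingual gland and pancreas 2 were called (13.9%), KLK5 and KLK7, both higher (10.4%, with 3.51% lower). With trimmed-mean scaling 7.33% of all genes were higher and 9.39% lower for the first of these pairs, 7.87% and 8.15% for the second, and 11% and 10.6% for the third.

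Between parotid and sublingual gland 5 members were called (41.5%), 0 higher in parotid (0.893%) and 5 lower (40.6%). With trimmed-mean scaling 6.7% of all genes were higher in parotid and 10.8% lower. Between submandibular and sublingual gland 5 were called (27.9%), KLK6 higher in submandibular gland (0.753%) and 4 lower (27.2%). There the trimmed-mean shares of all genes were 6.42% and 8.43%. Between parotid and submandibular gland limma called 0 members (0.347%; 0.133% higher and 0.214% lower), and 0 of the 9 had an unadjusted p below 0.05, the lowest being 0.0501 for KLK6.

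KLK15, a protease known for activating the KLK3 precursor, is the member next to KLK1. It was listed at 0 in 4 livers and was at most 0.166 TPM in the others. The submandibular range was 1.59 to 2.75 TPM with a median of 1.94 TPM, and the pancreas range 0.278 to 4.35 TPM with a median of 2.61 TPM. Sublingual levels ran from 0.576 to 6.23 TPM (median 2.33 TPM) and parotid levels from 0.601 to 5.58 TPM (median 0.876 TPM). All libraries of these 4 tissues exceeded every liver. In limma KLK15 was higher than in liver by 1.17 in parotid (SE 0.34, adjusted p = 0.00489), 1.55 in submandibular gland (adjusted p = 0.000514), 1.63 in sublingual gland (adjusted p = 0.000397) and 1.66 in pancreas (adjusted p = 0.000384). These 4 calls held under every alternative that gave a value, which the filter of 5 TPM did not.

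KLK6, a trypsin-like protease also called neurosin, had the highest submandibular mean after KLK1, 10.2 ± 5.64 TPM (SD, n = 6). It ranged there from 0.199 TPM (animal 4) to 16.4 TPM (animal 5), with a median of 10.9 TPM, and was at least 8.40 TPM in all but animal 4. In pancreas it was 0.0596 to 0.420 TPM (median 0.195 TPM) and in liver 0.0724 to 0.470 TPM (median 0.281 TPM). The submandibular library of animal 4 fell within these low ranges, and the other 5 did not. KLK6 was higher in submandibular gland than in pancreas by 2.85 (SE 0.59, adjusted p = 0.00154) and than in liver by 2.78 (SE 0.59, adjusted p = 0.000388), positive in 5 of 6 animals each. Both calls held under every alternative.

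Parotid KLK6 ran from 0.0621 TPM (animal 6) to 15.2 TPM (animal 4), with a median of 3.39 TPM. As for KLK1, animal 4 was highest in parotid and lowest in submandibular gland. The parotid excess over liver, 1.57 (SE 0.59, adjusted p = 0.0255), was no longer called without animal 1, 2 or 3 or with no filter on low values. Sublingual KLK6 was 0.454 to 7.94 TPM with a median of 0.960 TPM. The submandibular excess over it, 1.67 (SE 0.59, adjusted p = 0.0364), was lost when any animal except animal 4 was left out, and with no filter, with a pseudocount of 0.1 and in the fit of 12 libraries alone.

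KLK7, a chymotrypsin-like protease of skin shedding, and KLK5, which activates it, were low but regularly found in salivary glands. KLK7 was 2.21 to 3.77 TPM in parotid, with a median of 3.09 TPM, and 0.0788 to 1.48 TPM in liver, with a median of 0.377 TPM. The 2 ranges did not overlap. Sublingual KLK7 was 1.94 to 33.3 TPM with a median of 9.39 TPM, and submandibular KLK7 1.74 to 35.2 TPM with a median of 3.00 TPM. Both glands lay above every liver, and the top submandibular value was again that of animal 4.

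In pancreas KLK7 was 0.338 to 16.6 TPM with a median of 0.665 TPM, the highest being animal 4. KLK7 was higher than in liver by 2.82 in sublingual gland (SE 0.44, adjusted p = 1.21e-05), 1.91 in submandibular gland (adjusted p = 0.000959) and 1.48 in parotid (adjusted p = 0.00679). It was higher in sublingual gland than in pancreas by 1.92 (SE 0.44, adjusted p = 0.00316). These 4 calls held under every alternative. The parotid minus sublingual difference of -1.34 (adjusted p = 0.0196) did not: it was -0.50 (adjusted p = 0.306) with trimmed-mean scaling and -0.89 (adjusted p = 0.14) without the sublingual libraries of animals 1 and 4.

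KLK5 was at most 0.0906 TPM in every pancreas and liver library. Parotid KLK5 was 0.525 to 2.497 TPM with a median of 1.47 TPM, and sublingual KLK5 was 0.198 to 19.9 TPM with a median of 1.90 TPM. All 12 of these libraries lay above every pancreas and liver library. KLK5 was higher than in liver by 1.198 in parotid (SE 0.38, adjusted p = 0.00955) and 1.70 in sublingual gland (adjusted p = 0.000867), and than in pancreas by 1.67 in sublingual gland (adjusted p = 0.00263). These calls held under every alternative that gave a value, which the filter of 5 TPM did not. The parotid excess over pancreas, 1.17 (adjusted p = 0.0365), was lost with no filter and without animal 1, 2, 3 or 5. Submandibular KLK5, 0.102 to 1.49 TPM, also lay above every pancreas and liver library but was not called against either tissue.

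KLK10, KLK11, KLK12 and KLK13, proteases of stratified epithelia, reached high levels in 2 sublingual libraries. KLK10 was 178 and 393 TPM in those of animals 1 and 4, and at most 2.11 TPM in the other 4 sublingual libraries. KLK11 was 118 and 255 TPM in these libraries and at most 8.67 TPM in the other 4. KLK12 was 72.3 and 153 TPM, against at most 0.909 TPM. The 2 libraries stood apart from all others for each of these genes.

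KLK13 was 137 and 102 TPM in the same libraries, and at most 0.513 TPM in the other 4. KLK8 followed at 9.80 and 15.5 TPM, and KLK9 at 6.75 and 13.3 TPM, both at most 0.207 TPM in the other sublingual libraries. KLK7 was 17.8 and 33.3 TPM in them, also the 2 highest sublingual values. Summed over KLK10 to KLK13, the 2 libraries had 506 and 903 TPM, and the other 28 libraries had 0.702 to 12.3 TPM.

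These are also the 2 libraries with high squamous epithelium markers, all 18 of which were at least 1 TPM in both. KRT13, a keratin of non-cornified squamous epithelium, was 10694 and 34537 TPM there and at most 189 TPM in the other 28 libraries. SPRR3, a cornified envelope protein of oral and oesophageal lining, was 14720 and 38847 TPM, against at most 191 TPM. SPINK5, the inhibitor of KLK5, KLK7 and KLK14, was 606 and 1176 TPM, against at most 6.37 TPM. The marker list was drawn up after the values were seen, and the part of squamous epithelium in the kallikrein levels was not tested.

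**Figure D5:**
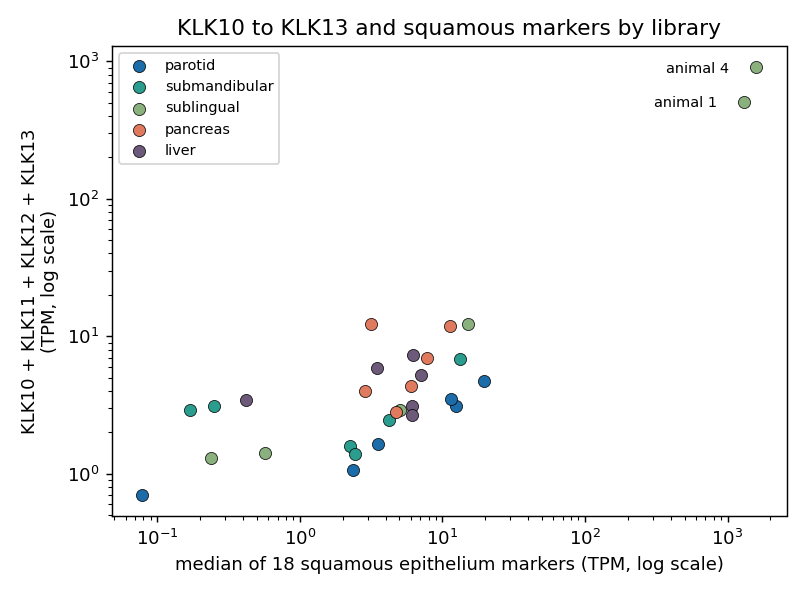
Summed KLK10, KLK11, KLK12 and KLK13 (vertical, TPM) against the median of 18 squamous epithelium markers (horizontal, TPM), both on log axes, with 1 point per library coloured by tissue. The sublingual libraries of animals 1 and 4 stand at the top right, at 506 and 903 TPM, and the other 28 lie at or below 12.3 TPM.

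The tests on these genes rested on the same 2 libraries. Sublingual levels were called higher than parotid for KLK10 (parotid minus sublingual -2.40, SE 0.87, adjusted p = 0.0303), KLK11 (-2.58, adjusted p = 0.0124) and KLK13 (-2.21, adjusted p = 0.0197), with the sublingual gland higher in 4, 4 and 5 of 6 animals. Without the sublingual libraries of animals 1 and 4 these differences were -0.06 (adjusted p = 0.88), -0.61 (adjusted p = 0.253) and -0.20 (adjusted p = 0.415). The 3 calls against the submandibular gland and that of KLK11 against liver were lost in the same way. With trimmed-mean scaling 6 of these 7 calls were lost, all but that of KLK11 against liver.

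Outside those 2 libraries KLK10, KLK11 and KLK13 were at most 8.67 TPM. In pancreas KLK11 was 0.998 to 8.44 TPM with a median of 2.93 TPM, and KLK10 was 0.982 to 4.18 TPM with a median of 1.74 TPM. In liver KLK13 was 0.752 to 1.91 TPM with a median of 1.29 TPM. None of these 3 genes was called between pancreas and liver, parotid and pancreas, or submandibular gland and pancreas.

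KLK4, a protease of maturing tooth enamel, was found mainly in pancreas. It was 0.612 to 6.04 TPM there, with a median of 1.33 TPM, and at most 0.167 TPM in every parotid and liver library. Of the 6 libraries with at least 1 TPM, which let it pass the filter, 4 were of pancreas, so it passed mainly through the tissue where it was high. It met the rule without pancreas through the submandibular library of animal 4 alone, so its differences are given as values only. Its calls enter only the counts of other members' calls under the alternatives, in the closing section. The pancreas difference was 1.38 from liver (SE 0.36), and the parotid and sublingual differences from pancreas were -1.37 and -1.17. Nothing is read from their p-values, because pancreas let the gene into the tests. The highest value of all, 6.93 TPM, was in the submandibular library of animal 4, where the other 5 were at most 0.0792 TPM.

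KLK14, a trypsin-like protease of epidermis, was called lower in parotid and submandibular gland than in the other 3 tissues. It was 0.126 to 1.00 TPM in parotid (median 0.608 TPM) and 0.135 to 3.88 TPM in submandibular gland (median 0.352 TPM). Pancreas levels were 0.238 to 7.56 TPM (median 2.41 TPM), sublingual levels 0.0498 to 4.47 TPM (median 2.84 TPM) and liver levels 0.416 to 4.30 TPM (median 2.05 TPM). The ranges overlapped for every pair, although parotid was below pancreas in 6 of 6 animals. The parotid minus pancreas difference was -1.24 (SE 0.30, adjusted p = 0.00491), and the submandibular minus pancreas difference -1.12 (SE 0.30, adjusted p = 0.0145).

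KLK14 was also called lower in both glands than in sublingual gland (-1.05, adjusted p = 0.0078, and -0.93, adjusted p = 0.0228) and liver (-0.91, adjusted p = 0.0118, and -0.78, adjusted p = 0.0308). All 6 KLK14 calls were lost without the animal block, where the adjusted p ran from 0.0595 to 0.142. The 4 against sublingual gland and liver were lost with trimmed-mean scaling. The median of all genes tested lay at -0.84 for parotid minus liver and -0.70 for parotid minus sublingual gland in TPM as deposited, and at -0.04 and -0.03 with trimmed-mean scaling. For the submandibular gland it lay at -0.70 against liver and -0.56 against sublingual gland, and at -0.48 for parotid minus pancreas.

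KLK8, KLK9 and KLK12 met the rule through the sublingual gland alone and were not tested. Outside it, KLK8 exceeded 1 TPM in 2 libraries, the submandibular gland and pancreas of animal 4, at 3.44 and 3.46 TPM. KLK9 stayed at or below 0.162 TPM outside the sublingual gland, and KLK12 at or below 1.46 TPM.

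Most other genes of the kallikrein-kinin system were highest in liver. Of 18 listed genes, 14 were tested, and 12 were called lower in parotid than in liver (53.4% of all genes were called lower) and 0 higher. In submandibular gland 11 were lower than in liver (45.1% of all genes), in sublingual gland 11 (18.7%) and in pancreas 11 (23.6%), with 0 higher. The median difference of the list was -5.12 for parotid, -5.01 for submandibular gland, -4.62 for sublingual gland and -3.82 for pancreas, where the median of all genes lay between -0.84 and -0.10. With the 3 other scalings 10 to 12 were lower in each comparison, with up to 3 higher in submandibular gland and 1 in parotid. Of all genes, trimmed-mean scaling gave 25.1% lower and 18.3% higher in parotid, and 25.6% and 21% in submandibular gland. It gave 23.6% lower in sublingual gland and 20.9% in pancreas. Such shares are not given for the remaining scalings.

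KNG1, which encodes the kininogens that KLK1 cuts, was 479 ± 201 TPM in liver (SD, n = 6) and had means between 2.89 TPM (parotid) and 4.17 TPM (pancreas) in the other tissues. KNG1 was 278 to 697 TPM in the livers and at most 6.502 TPM elsewhere, so the liver did not overlap any other tissue. KLKB1, plasma kallikrein, which is not a member of the KLK cluster, was 81.0 ± 16.6 TPM in liver (SD, n = 6) and at most 1.62 TPM elsewhere. F12, the factor that activates plasma kallikrein, was 417 ± 106 TPM in liver (SD, n = 6) and at most 6.196 TPM elsewhere. SERPINA4, kallistatin, an inhibitor of KLK1, was 148 ± 40.3 TPM in liver (SD, n = 6) and at most 2.33 TPM elsewhere.

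The kinin receptors were low in most libraries. BDKRB2, the receptor for bradykinin and kallidin, was 0.364 to 1.94 TPM in pancreas with a median of 1.33 TPM. Elsewhere it was at most 0.650 TPM except 2.03 TPM in the submandibular library of animal 4. BDKRB1, the receptor for kinins shortened by carboxypeptidases, was 4.19 and 3.39 TPM in the sublingual libraries of animals 1 and 4, and at most 0.997 TPM in the other 28. Neither receptor passed the filter, and neither was tested.

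Of 14 tested genes of the kallikrein-kinin list, which besides kinin-degrading enzymes holds kininogen, plasma kallikrein and 2 protease inhibitors, 4 were called lower in parotid than in pancreas (13.6% of all genes). Between submandibular gland and pancreas 3 were called lower (7.46%) and 1 higher (2.25%). ANPEP, aminopeptidase N, was lower in parotid than in pancreas by 2.44 (parotid minus pancreas -2.44, adjusted p = 0.000389) and in submandibular gland than in pancreas (-2.11, adjusted p = 0.00241). ECE1, endothelin-converting enzyme, was lower in parotid (-2.34, adjusted p = 0.00272) and in submandibular gland (-1.97, adjusted p = 0.0141) than in pancreas. SERPING1, the inhibitor of plasma kallikrein, was lower than in pancreas in parotid (-2.65, adjusted p = 0.001) and submandibular gland (-2.10, adjusted p = 0.0108). SERPINA4 was also lower in parotid than in pancreas (-0.70, adjusted p = 0.0209). Its levels were low in both, 0.612 to 0.740 TPM in parotid and 0.885 to 2.33 TPM in pancreas. The median of all genes for parotid minus pancreas was -0.48. Under each of the 3 other scalings 3 genes of the list were called lower in parotid than in pancreas, with up to 1 higher. With trimmed-mean scaling 9.39% of all genes were lower and 7.33% higher. DPP4, a dipeptidyl peptidase of the cell surface, was higher in submandibular gland than in pancreas (1.58, adjusted p = 0.0196). In animal 4, ACE, which inactivates bradykinin, was 52.1 TPM in submandibular gland and 11.5 TPM in pancreas, and it was at most 3.39 TPM in the other 28. ACE was called in no tissue pair.

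Of 11 tested inhibitors and membrane proteases linked to kallikreins, 6 were called higher in sublingual gland than in pancreas (10.4% of all genes) and 0 lower. PRSS8, prostasin, a membrane-anchored protease, was 149 ± 53.7 TPM in sublingual gland and 13.3 ± 3.85 TPM in pancreas (SD, n = 6), a difference of 3.35 (adjusted p = 1.26e-06). SPINT1 and SPINT2, inhibitors of matriptase and prostasin, were higher by 2.26 (adjusted p = 0.000382) and 2.30 (adjusted p = 0.000336). ST14, matriptase, was higher by 1.39 (adjusted p = 0.000465). The list's median was 1.73, against 0.23 for all genes. Of the 6 genes, 5 were also called higher after trimmed-mean scaling (11% of all genes), namely PRSS8, SERPINA3, SPINT1, SPINT2 and ST14. After quantile normalisation 3 were called higher, PRSS8, SERPINA3 and SPINT1. The same 3 were called when levels were set relative to all but the top 100 genes. The calls of SPINT2 and ST14 were thus lost under both of these scalings. Against parotid 10 of the 11 were higher in sublingual gland (40.6% of all genes). With trimmed-mean scaling 3 were (10.8% of all genes), and 2 were with quantile normalisation and with top-100-gene scaling. For these last scalings no share of all genes by direction is given, here or against pancreas. So whether the fall was particular to the list was not tested. Between parotid and pancreas 1 of the 11 was called higher in parotid (2.24% of all genes), PRSS8, by 2.02 (adjusted p = 0.001). Another 2 were called lower in parotid (13.6%), SERPINB6 (-1.92, adjusted p = 0.00074) and TMPRSS2, a membrane-anchored serine protease (-1.82, adjusted p = 0.00594).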

How the data were processed

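RNA from frozen sections of 5 tissues of 6 animals was sequenced as paired reads, per the labels' protocols. The authors deposited 1 table of TPM values per gene from kallisto, which is listed in the submitters' processing notes; its version, the transcript set and the genome build are not given in the sources used here. TPM sums to a fixed total in each library, so read depth is unknown, and no counting interval or detection floor is given. Reads shared by near-identical paralogs cannot be told apart. All 30 sample columns were matched by library name, and 0 were left unused.

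The 13550 of 21292 genes that reached 1 TPM in 6 or more libraries entered a limma fit (limma 3.58.1, R 4.3.3) of log2(TPM + 1), which understates changes of low genes, with 5 tissues and the animal as a block, taken from the within-animal design. All 30 libraries shared 1 spread estimate, p-values were adjusted over all genes within a pair by the Benjamini-Hochberg method, and 0.05 was the threshold. Deviations from tissue means correlated at 0.161 between libraries of 1 animal and -0.0186 between animals. The 2 most similar libraries correlated at 0.979 and none were identical. The limma fit was also run on simulated data with independent normal noise. That simulation held no library that stood apart and no shift in scaling, so it says nothing about either. Exact sign-flip tests over animals were added for KLK1.

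Named genes were all KLK genes meeting the rule and KLK3, the kallikrein-kinin list, the 5 genes most like KLK1 by each measure and the neighbours of KLK1; inhibitors, receptors and cell markers came from further lists. Members and lists were chosen with earlier results of these data known. A member was tested between 2 tissues only if it met the rule with each of them left out. Gene order was taken from RefSeq for T2T-MMU8v2.0, in which 19177 symbols (90.1%) were found; no coordinates are given. Alternatives were no block, 12 libraries per fit, quantile, trimmed-mean and top-100-gene scaling, other filters, no variance trend, a pseudocount of 0.1, and leaving out each animal; 4 more, leaving out libraries that stood apart, were added after the data were seen.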

Additional observations from a re-analysis of the deposited data

Results flagged for a closer look

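In 17 of 65 sets of 6 libraries (1 gene in 1 tissue), 1 library stood, on the log2(TPM + 1) scale, farther from its nearest neighbour than Dixon's 95% limit for its set allows; chance alone gives about 1 in 20, or 3.25 sets. In 14 of the 17 sets the library that stood apart was one of animal 4, mostly its submandibular library. Sets that share a library are not independent departures. KLK1 of animal 4 was lowest in submandibular gland (45.2 TPM, next 986), in sublingual gland (170 TPM, next 514) and in pancreas (55.9 TPM, next 1363), and KLK6 was lowest in its submandibular library (0.199 TPM, next 8.40). KLK15 was highest in its parotid library (5.58 TPM, next 1.68).

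The submandibular library of animal 4 was also highest of its set for KLK4 (6.93 TPM), KLK7 (35.2 TPM), KLK8 (3.44 TPM), KLK9 (0.128 TPM), KLK10 (2.37 TPM), KLK13 (1.92 TPM) and KLK14 (3.88 TPM). Its pancreas library was highest for KLK7 (16.6 TPM) and KLK8 (3.46 TPM). These are the 2 libraries with both high adipocyte markers and low acinar markers. The sublingual library of animal 4 was also lowest of its set for MUC7 (184 TPM, next 1401) and SMR3B (1287 TPM, next 2387), both on the salivary acinar list. The rest of that list is not given here for single sublingual libraries. The part of these markers was not tested. The remaining cases were KLK4 in the sublingual library of animal 1 (1.19 TPM), KLK7 in the liver of animal 3 (1.48 TPM) and KLK9 in the pancreas of animal 6 (0.0573 TPM, the others listed at 0). In 0 of 10 tissue pairs did the sexes move wholly in opposite ways for KLK1.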

How the results depend on the processing

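The 4 KLK1 calls against liver held under every alternative run in limma, and no pair among glands and pancreas was called under any alternative that kept all of animal 4. The parotid minus sublingual difference (-0.17) reversed to 1.46 with quantile normalisation, 0.82 with trimmed-mean scaling, 1.31 relative to all but the top 100 genes, 0.33 without 3 libraries (pancreas and submandibular gland of animal 4, parotid of animal 6) and 0.074 with animal 4 left out and trimmed-mean scaling. Submandibular minus pancreas (-0.24) reversed to 0.92, 0.30, 0.44 and, in that last combination, 0.48, and parotid minus pancreas (-0.93) to 0.59 with quantile normalisation. Without the 3 libraries parotid minus pancreas (-1.24), submandibular minus sublingual (1.34) and sublingual minus pancreas (-1.57) became called; without these and the sublingual libraries of animals 1 and 4 they were -1.45, 1.03 and -1.26. The combination called parotid minus submandibular at -2.17, parotid minus pancreas at -1.69, submandibular minus sublingual at 2.25 and sublingual minus pancreas at -1.77. Exact p-values with trimmed-mean scaling were 0.0625 for submandibular gland against liver, 0.469 for parotid against sublingual gland and 0.531 for submandibular gland against pancreas, the latter 2 reversed in sign; leaving out an animal was not run for this test, which then cannot go below 0.0625. KLK10 reversed for parotid minus sublingual to 0.021 without 5 libraries. Leaving out each animal gave ranges of -2.001 to -0.037 for parotid minus submandibular, -0.997 to 0.384 for parotid minus sublingual, -2.23 to -0.37 for parotid minus pancreas, 2.97 to 4.09 for parotid minus liver, 0.26 to 1.00 for submandibular minus sublingual, -0.38 to -0.09 for submandibular minus pancreas, 3.95 to 4.97 for submandibular minus liver, -1.23 to -0.60 for sublingual minus pancreas, 3.54 to 3.97 for sublingual minus liver and 4.23 to 5.20 for pancreas minus liver. Calls of other members (33, of which 3 were of KLK4) numbered 9 with a filter of 5 TPM, which leaves fewer members, and 20 to 37 without an animal, fewest without animal 1. Numbers of calls over all genes also moved between alternatives, as given below, so nothing is read from these counts about the members. Without the replicate block of animals, KLK1 differences were the same in size (4.45 for pancreas minus liver) and 25 of the 33 other calls remained; besides those of KLK14, the lost calls were KLK7 for parotid against sublingual gland (adjusted p = 0.0694) and KLK13 for submandibular against sublingual gland (adjusted p = 0.0529). The rule gave 10 members with medians and 7 at 5 TPM.

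Numbers of genes called moved by over 1.5 times between alternatives: from 0 to 224 for parotid against submandibular gland (47 in the analysis reported), 2328 to 9398 for parotid against sublingual gland (5625), 947 to 4289 for parotid against pancreas (2141), 666 to 9442 for submandibular against sublingual gland (3787), 623 to 5200 for submandibular gland against pancreas (1316), 1049 to 5116 for sublingual gland against pancreas (1887), 2726 to 6208 for sublingual gland against liver (4273) and 2817 to 7296 for pancreas against liver (4114). For the liver pairs of parotid and submandibular gland they were 5435 to 10213 (7856) and 4902 to 10220 (6876).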
